A study of Mus musculus with 18 samples.

Results

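The genes described here handle inorganic sulfur in the colon epithelium, namely *Slc26a2*, *Papss1*, *Papss2*, *Mpst*, *Tst*, *Ethe1* and *Suox*. They were selected on earlier results of these libraries as 7 genes of 52636, and which comparison guided the choice was not recorded. Levels and differences of these 7 genes are therefore given as a description, without p-values, whereas other genes of the same pathways were tested. The lists of those other genes were also drawn up with earlier results known, so their adjusted p-values are not independent support. The study asked how colon epithelial cells change when Olfr78, an olfactory receptor that senses short-chain fatty acids, is lost. RNA was sequenced from 18 libraries of mouse colon, 6 of sorted cells and 12 of whole crypts.

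The sorted cells came from adult mice of the Olfr78-GFP line, in which a GFP-IRES-tauLacZ cassette replaces the coding exon of *Olfr78*. There were 2 libraries of Epcam+ve cells, titled Epcam+ve/GFP-ve and called Epcam+ve here, both samples of 1 WT mouse. Beside them were 2 pools of Epcam+ve/GFP+ve cells from heterozygous (HE) mice and 2 such pools from homozygous (KO) mice, each pool from 2 mice. Their archive labels call all 6 enteroendocrine, although the Epcam+ve libraries were sorted as general epithelium. Crypts were detached with EDTA, 1 mouse per library, from 2 WT and 5 KO mice of the same line and from 3 control mice and 2 eKO mice, these of the Vil1-Cre-Olfr78fx line. In that line Cre is driven by the villin promoter in epithelial cells and the coding exon of *Olfr78* is floxed, so that other cells of the crypt preparation keep the gene. The lines have different genetic backgrounds, and the ages of the crypt donors are not given in the sources used here. The control mice carry the genotype labels HE/WT, WT/HO and HE/WT, and the eKO mice the labels HE/HO and WT/HO, so the label of eKO mouse 2 equals that of control mouse 2 and goes against its title. Fitted differences that use the Vil1-Cre-Olfr78fx line are therefore given with and without eKO mouse 2.

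Sulfate enters cells through transporters such as Slc26a2, which exchanges sulfate for other anions at the plasma membrane. The bifunctional PAPS synthases Papss1 and Papss2 couple sulfate to ATP and then phosphorylate the product to PAPS, the donor that sulfotransferases use to sulfate mucins, proteoglycans, tyrosines, hormones and xenobiotics. Sulfide from bacteria and from cysteine is oxidised in mitochondria, where Sqor forms a persulfide, Ethe1 oxidises persulfide to sulfite, the rhodanese Tst makes thiosulfate, and Suox, a molybdenum cofactor enzyme, turns sulfite into sulfate. Mpst, a rhodanese relative, moves sulfur from 3-mercaptopyruvate onto acceptors and releases sulfide. The colon epithelium is known both for heavily sulfated mucus and for sulfide oxidation, which is strongest in the colonocytes near the lumen.

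Values are reads per gene scaled to 20000000 per library, in units of CP20M. Recovered reads on genes numbered 532702 to 2237474 in the sorted libraries and 6175301 to 10995300 in the crypts, so that 1 read was worth 8.94 to 37.5 CP20M in the former, most in KO pool 1, and 1.82 to 3.24 CP20M in the latter. *Olfr78* itself gave 135 and 21 CP20M in Epcam+ve cells, against 4822 and 4401 in HE and 977 and 837 in KO pools. In crypts it stood at 88 and 111 CP20M in WT, 7 to 42 in KO, 61 to 124 in control, 21 in eKO mouse 1 and 73 in eKO mouse 2. The value of eKO mouse 2 lay inside the range of the control mice, and reads on exons outside the deleted part cannot be told apart from the rest. Enteroendocrine markers summed to 853781 to 1102352 CP20M in the HE pools and 358641 to 598160 in the KO pools, against 13164 to 13302 in the Epcam+ve libraries. All 6 general epithelial genes on the marker list were above 3 reads in every library.

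*Papss1* (ENSMUSG00000028032, GRCm38 chromosome 3, 131564768 to 131643671, plus strand) and *Papss2* (ENSMUSG00000024899, chromosome 19, 32595790 to 32667187, plus strand) encode related enzymes of the same reaction. The 250 bases before the first RefSeq start of each gene (build GRCm38.p6, no annotated exon inside, plus strand) are shown because the values of these 2 genes moved apart in the comparisons given after them. Capitals mark GC boxes (GGGCGG) and CCAAT boxes (CCAAT) on either strand, which did not overlap each other, and TATA boxes (TATAAA) were searched in the same way. These windows stand for the first start only.
Papss1, chr3:131564518-131564767: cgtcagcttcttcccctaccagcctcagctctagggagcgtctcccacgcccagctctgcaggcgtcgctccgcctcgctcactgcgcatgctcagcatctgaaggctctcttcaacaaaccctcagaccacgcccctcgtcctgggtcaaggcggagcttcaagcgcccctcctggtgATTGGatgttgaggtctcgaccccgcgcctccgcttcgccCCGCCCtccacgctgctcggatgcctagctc
Papss2, chr19:32595465-32595714: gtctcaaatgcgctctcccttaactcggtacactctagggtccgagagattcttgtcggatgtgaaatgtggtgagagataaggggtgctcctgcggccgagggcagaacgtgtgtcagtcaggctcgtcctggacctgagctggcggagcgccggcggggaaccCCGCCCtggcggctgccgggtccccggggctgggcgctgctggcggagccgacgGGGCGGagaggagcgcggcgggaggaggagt
The window of *Papss2* held 2 GC boxes and no CCAAT box, and that of *Papss1* held 1 of each, while these letters of the TATA box were in neither. At the second RefSeq start of *Papss2* (chr19:32619755-32620004) the window held 0 GC boxes and 2 CCAAT boxes, and that of *Papss1*, which overlaps annotated exons, held none of either, so the counts differ between starts of 1 gene. Of 32851 RefSeq windows of this length, 32.7% held a GC box, 33.8% a CCAAT box and 12.4% a TATA box. The GC content was 65.2% for *Papss1* and 67.6% for *Papss2*.

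*Mpst* (ENSMUSG00000071711, chromosome 15, 78406416 to 78414013, plus strand) and *Tst* (ENSMUSG00000044986, chromosome 15, 78399556 to 78405907, minus strand) are neighbours that point away from each other, with 508 bases between their annotated ends. *Ethe1* (ENSMUSG00000064254) lies on chromosome 7 from 24587543 to 24608925 and overlaps *Zfp575* on the other strand, and *Papss1* overlaps *Gm42881* on the other strand. The strand setting of the counting is not given in the sources used here, so reads of such partners cannot be told apart. *Suox* (ENSMUSG00000049858) lies on chromosome 10 from 128669894 to 128674073, minus strand. Annotation is from GENCODE vM21 on the GRCm38 build, matched by gene ID.

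Levels per kb used the union of annotated exons of a gene, 3.72 kb for *Papss2* and 12.37 kb for *Slc26a2*, and the order depends on these lengths. Without them, *Slc26a2* had a mean of 27038 CP20M in WT crypts and *Papss2* 20454. Per kb of exon, *Papss2* had the highest level of the 7 genes in WT crypts, at 5497 ± 1537 CP20M per kb (SD, n = 2). *Ethe1* followed at 2537 ± 59.6 CP20M per kb, *Slc26a2* at 2186 ± 227.8 and *Mpst* at 1930 ± 387. The levels of *Slc26a2* and *Mpst* did not differ beyond their spread. *Papss1*, *Tst* and *Suox* were lower, at 765 ± 30.8, 688.9 ± 28.6 and 170.2 ± 5.66 CP20M per kb. In eKO crypts the order of the first 2 was exchanged, with *Ethe1* at 3468 ± 68.6 and *Papss2* at 3254 ± 438.6 CP20M per kb (SD, n = 2), a gap within the spread of *Papss2*. In the HE pools *Papss1* came second, at 1023 ± 12 CP20M per kb, after *Papss2* at 1305 ± 923, and these values did not differ beyond the spread of *Papss2*.

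**Figure D1:**
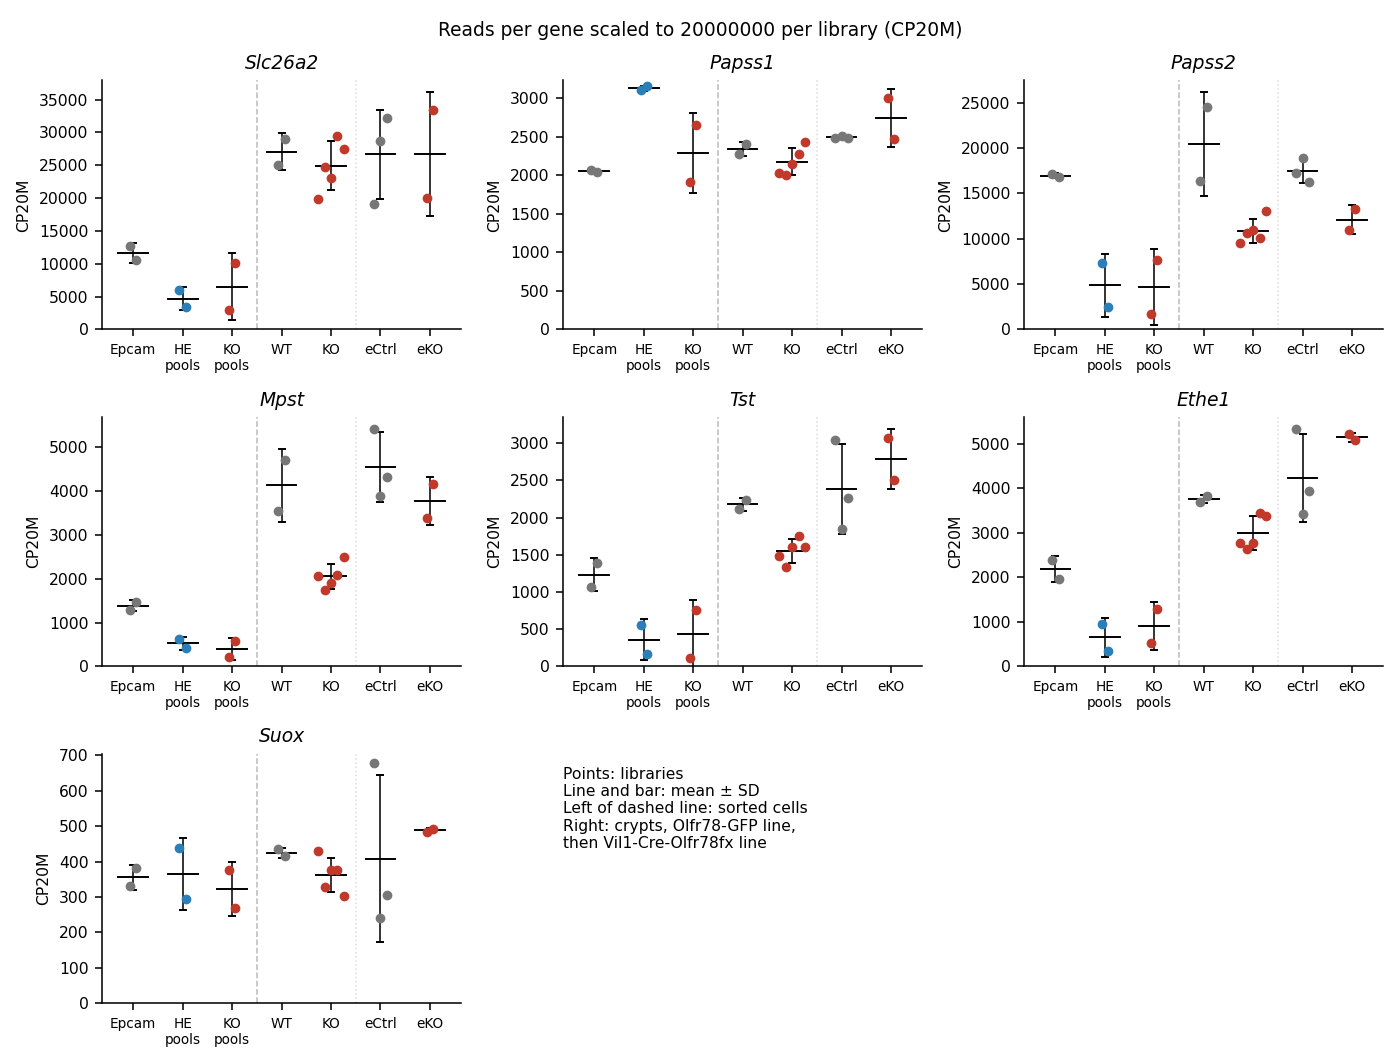
CP20M value of each of the 7 genes (vertical axis, from 0) in each of the 18 libraries (points), with mean and SD per group, for sorted cells left of the dashed line and crypts right of it. *Papss2* sits between 9538 and 13028 in all 5 KO crypts, below both WT crypts at 16409 and 24498, while *Papss1* spans only 2005 to 3000 over all crypts.

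In GFP+ve cells of HE mice, 5 of the 7 genes stood below general epithelium and 1 above it. The sulfate exchanger *Slc26a2* had 12693 and 10612 CP20M in the Epcam+ve libraries and 5961 and 3454 in the HE pools. *Papss2* had 17118 and 16776 CP20M in the Epcam+ve libraries and 7284 and 2427 in the HE pools, while *Papss1* gave 2065 and 2045 there, against 3096 and 3148 in GFP+ve cells. The groups did not overlap for any of these 3 genes, with *Papss2* at 0.287 and *Papss1* at 1.52 times the Epcam+ve mean. The fitted log2 fold changes, on log2(CP20M + 10), were -1.35 for *Slc26a2* (standard error 0.26), -2.01 for *Papss2* (standard error 0.42) and 0.60 for *Papss1* (standard error 0.17). In this comparison 1 of the paired synthases was thus below and the other above general epithelium.

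Among the sulfide genes, *Mpst* had 1297 and 1470 CP20M in the Epcam+ve libraries and 633 and 414 in the HE pools. *Tst* stood at 1073 and 1387 CP20M there, against 553 and 161 in GFP+ve cells. *Ethe1* gave 2396 and 1973 CP20M in general epithelium, against 956 and 347 in GFP+ve cells. All 3 stood lower in the HE pools without overlap, at log2 fold changes of -1.41 (standard error 0.27), -1.99 (standard error 0.50) and -1.90 (standard error 0.41). *Suox* stood apart from them, with 331 and 381 CP20M in the Epcam+ve libraries, 438 and 294 in the HE pools and a log2 fold change of 0.02 (standard error 0.35). In bulk samples such as these, fewer cells of a type and less RNA per cell cannot be told apart.

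Under limma with Benjamini-Hochberg adjustment at 0.05 over all 16355 genes, 5 of the 7 were called lower, beside 11.3% of all genes, and *Papss1* higher, beside 12.5%. At an adjusted p under 0.001 and beyond 4-fold, none of the 7 was called, beside 1.75% of all genes in either direction. Non-overlap with the HE pools below held for 5 of the 7 and for 33.1% of all genes. The median log2 fold change was -1.41 over the 7 genes and -0.05 over all genes. Because the 7 genes were chosen with these results known, the counts describe them and carry no weight of their own. Cell stress genes summed to 37614 to 42921 CP20M in the Epcam+ve and 116377 to 121734 in the HE libraries, and stem and proliferation markers to 24454 to 25507 and 3073 to 7726, and their part in the values of the 7 genes was not tested. Both Epcam+ve libraries came from 1 mouse, and no gene of the 7 was called at 0.05 when all 6 sorted libraries entered 1 fit or when the spread was fitted without a trend.

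The KO pools showed a like order against the same Epcam+ve libraries, with a wider spread. *Papss2* had 1690 and 7658 CP20M in KO pools 1 and 2, *Slc26a2* had 2966 and 10098, and *Mpst* had 226 and 570. *Tst* had 113 and 756 CP20M, the former from 3 reads, and *Ethe1* had 526 and 1290. All 5 lay below both Epcam+ve libraries, whereas *Papss1* at 1915 and 2650 CP20M and *Suox* at 376 and 268 overlapped them. The log2 fold changes against the Epcam+ve libraries were -2.23 for *Papss2* (standard error 0.66), -1.91 for *Mpst* (0.47), -2.0 for *Tst* (0.81), -1.39 for *Ethe1* (0.45), -1.08 for *Slc26a2* (0.56), 0.13 for *Papss1* (0.28) and -0.16 for *Suox* (0.40). None of the 7 was called in limma at either threshold, beside 0% of 15779 genes at the stricter and 0.114% lower and 0.621% higher at the other, and 2925 genes had an unadjusted p under 0.05. Non-overlap below the Epcam+ve libraries held for 5 of the 7 and for 35.5% of all genes. Cell stress genes gave sums of 150220 (KO pool 1) and 67040 CP20M (KO pool 2), against 37614 to 42921 in the Epcam+ve libraries, and their part in these values was not tested.

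**Figure D2:**
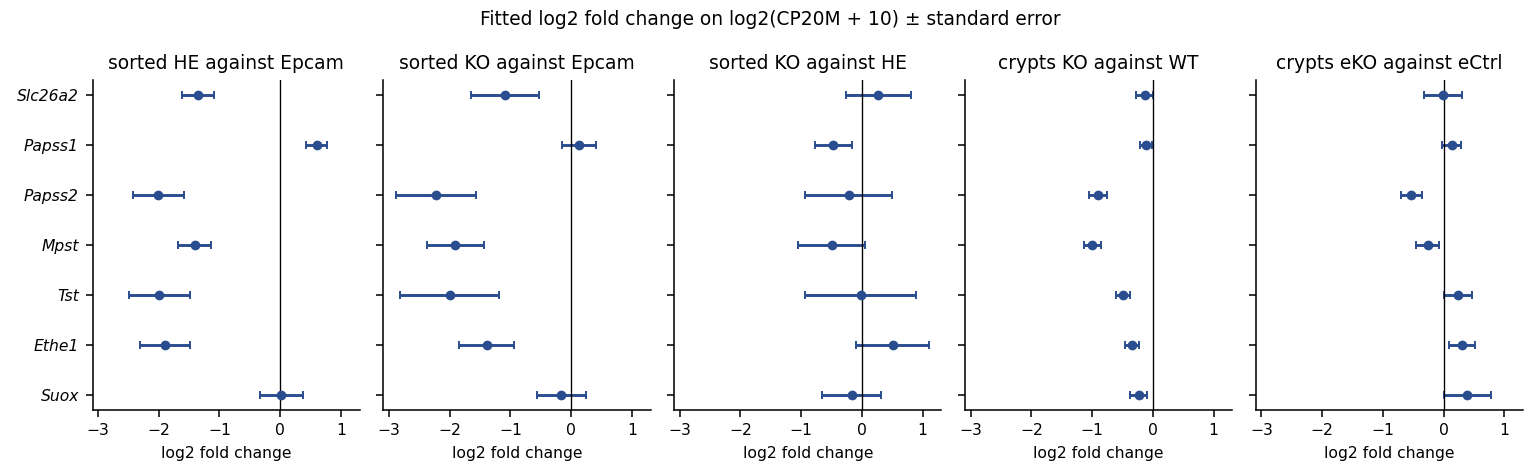
Fitted log2 fold change (horizontal axis, log2 units) with its standard error for the 7 genes in 5 comparisons, each panel titled with the groups it compares. *Papss2* lies at -2.01 and -2.23 against the Epcam+ve libraries, at -0.90 in KO crypts and at -0.53 in eKO crypts, while *Suox* stays between -0.23 and 0.39. The first 2 panels share the Epcam+ve libraries, and panel 3 shares its pools with both.

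Between KO and HE pools, the pools of a genotype differed as much as the genotypes. *Papss2* was 3.0 times higher in HE pool 1 than in HE pool 2 and 4.53 times higher in KO pool 2 than in KO pool 1. *Tst* was 3.43 and 6.69 times higher in the same pools, and *Ethe1* 2.76 and 2.45 times. In all, 6 of the 7 genes were higher in HE pool 1 than in HE pool 2, the exception being *Papss1*, and 6 were higher in KO pool 2 than in KO pool 1, the exception being *Suox*. Of all genes at 40 CP20M or more in both pools, 58.2% and 51.9% were higher in these same pools.

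Goblet cell markers summed to 165262 and 85986 CP20M in HE pools 1 and 2, and to 70889 and 342129 in KO pools 1 and 2, against 370170 and 327065 in the Epcam+ve libraries. *Muc2* made up much of these sums, with 111913 and 53833 CP20M in HE pools 1 and 2 and 54740 and 252362 in KO pools 1 and 2. Colonocyte markers summed to 77720, 59331, 24182 and 70513 CP20M in the same 4 pools, and to 127210 and 113522 in the Epcam+ve libraries. The pools in which *Papss2*, *Slc26a2*, *Mpst*, *Tst* and *Ethe1* were higher were thus those with the higher goblet and colonocyte sums of their genotype. At least 7 of the 10 goblet markers and 7 of the 10 colonocyte markers were above 3 reads in both pools of each genotype, and *Saa1* was at 0 in both KO pools. Against the Epcam+ve libraries, 9 of the 10 goblet markers lay below 0 on the log2 scale in the HE pools, at a median of -1.75. In the KO pools all 10 did, at a median of -1.84. The part of other epithelial cells in these values was not tested.

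**Figure D3:**
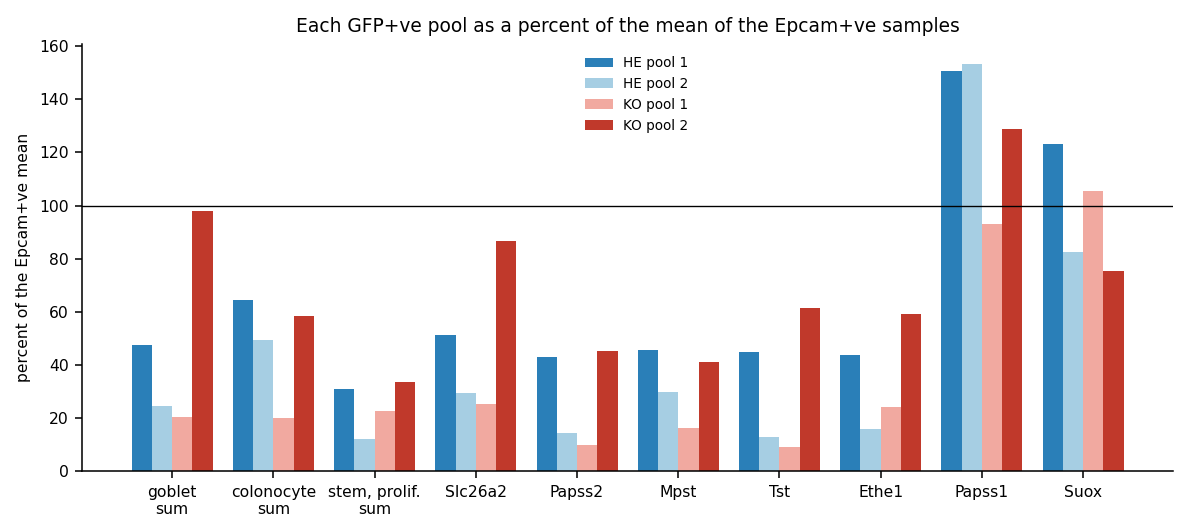
Value of each GFP+ve pool as a percent of the mean of the 2 Epcam+ve libraries (vertical axis, from 0, line at 100), for 3 summed marker lists and the 7 genes. *Papss2* reads 43.0 and 14.3 in HE pools 1 and 2 and 9.97 and 45.2 in KO pools 1 and 2, and the goblet sum 47.4, 24.7, 20.3 and 98.1 in the same order, while *Papss1* stays at 93.2 or above. *Muc2* makes up much of the goblet sum.

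Against the HE pools, the log2 fold changes in the KO pools were -0.22 for *Papss2* (standard error 0.71), -0.50 for *Mpst* (0.55), -0.02 for *Tst* (0.91), 0.51 for *Ethe1* (0.60), 0.27 for *Slc26a2* (0.54) and -0.17 for *Suox* (0.49). *Papss1* was the 1 gene of 7 whose KO pools lay below both HE pools, at -0.47 (standard error 0.30), beside 26.1% of the 11892 genes above 40 CP20M in all 4 pools. None of the 7 was called in limma at an adjusted p under 0.05, beside 0% of all genes, where 503 genes had an unadjusted p under 0.05, edgeR called 0 and DESeq2 called 8. None passed the criterion of the methods, a difference of means beyond 2 times the mean SD with a ratio beyond 1.5-fold, which 13.2% of all genes passed. The median of all genes was -0.18 on this scale, and it was -0.08 against the Epcam+ve libraries after median-of-ratios rescaling in place of -0.26, so small differences of the KO pools depend on the scaling. After that rescaling *Tst* stood at 0.15 and *Suox* at 0.00 in KO against HE pools.

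In whole crypts of the Olfr78-GFP line, *Papss2* and *Mpst* stood at about the same fraction of WT in KO mice. *Papss2* had 16409 and 24498 CP20M in the WT crypts and 9538, 10588, 10910, 10106 and 13028 in the KO crypts. All 5 KO mice lay below both WT mice, with means of 10834 ± 1331 (SD, n = 5) and 20454 ± 5720 (SD, n = 2) and their ratio 0.53. *Mpst* had 3550 and 4723 CP20M in the WT crypts and 2072, 1743, 1894, 2079 and 2501 in the KO crypts. Its groups did not overlap either, with means of 2058 ± 284.2 (SD, n = 5) and 4136 ± 829.4 (SD, n = 2) and their ratio 0.497. The log2 fold changes were -0.90 for *Papss2* (standard error 0.15) and -1.0 for *Mpst* (standard error 0.14). With each library left out in turn they ranged from -1.18 to -0.61 for *Papss2* and from -1.21 to -0.79 for *Mpst*, the value nearest 0 in each being without WT mouse 2.

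*Tst*, the neighbour of *Mpst*, had 2115 and 2243 CP20M in the WT crypts and 1478, 1335, 1604, 1759 and 1601 in the KO crypts. *Ethe1* gave 3702 and 3827 CP20M in WT mice, against 2762, 2630, 2774, 3446 and 3389 in KO mice. Both lay lower in KO mice without overlap, at ratios of 0.714 and 0.797 and log2 fold changes of -0.49 (standard error 0.11) and -0.34 (standard error 0.12), short of 1.5-fold. The groups overlapped for *Papss1*, which had 2269 and 2402 CP20M in WT and 2005 to 2425 in KO crypts. They also overlapped for *Suox*, with 435 and 415 CP20M against 304 to 429, and for *Slc26a2*, with 25045 and 29030 CP20M against 19855 to 29385. The log2 fold changes of these 3 were -0.11 (standard error 0.10), -0.23 (standard error 0.14) and -0.13 (standard error 0.14).

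At an adjusted p of at most 0.2 from limma and beyond 1.5-fold, 2 of the 7, *Papss2* and *Mpst*, were called lower in KO crypts, beside 1.53% of 15975 genes, and none higher, beside 7.95%. Non-overlap with KO below WT held for 4 of the 7 and for 13.1% of all genes. The median log2 fold change was -0.34 over the 7 genes and 0.03 over all genes. Colonocyte markers summed to 198137 to 205462 CP20M in WT and 136513 to 170130 in KO crypts, a ratio of means of 0.757. The list was split, with 6 of its 10 genes below and 4 above 0 on the log2 scale, 2 called lower and 1 higher. *Car1*, a carbonic anhydrase of colonocytes that makes up much of the sum, had 105749 and 111936 CP20M in WT and 69591 to 83771 in KO crypts. General epithelial genes summed to 90501 to 94029 CP20M in WT and 77528 to 87592 in KO crypts. Cell stress genes summed to 16670 to 22884 CP20M in WT and 7786 to 10502 in KO crypts, and leukocyte markers to 782 to 928 in WT and 332 to 672 in KO crypts. Goblet cell markers summed to 407351 to 469576 CP20M in WT and 389035 to 670450 in KO crypts, a ratio of means of 1.24. Of these 10 markers, 6 lay above and 4 below 0 on the log2 scale, with 1 called lower and 0 called higher. *Muc2*, which makes up much of the goblet sum, had 329720 and 275566 CP20M in WT and 266389 to 525744 in KO crypts. Stem and proliferation markers summed to 16289 to 16621 CP20M in WT and 16695 to 18895 in KO crypts. The part of these differences in the values of *Papss2* and *Mpst* was not tested.

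In the Vil1-Cre-Olfr78fx line, *Papss2* was again lower in the mice titled eKO, and *Mpst* overlapped between the groups. *Papss2* had 17294, 18917 and 16262 CP20M in the control crypts, and 10954 and 13262 in eKO mice 1 and 2. The groups did not overlap, with means of 17491 ± 1338 (SD, n = 3) and 12108 ± 1632 (SD, n = 2) and their ratio 0.692 and a log2 fold change of -0.53 (standard error 0.18), or -0.67 without eKO mouse 2. *Mpst* had 5427, 3887 and 4333 CP20M in the control crypts and 3383 and 4170 in the eKO crypts, so that eKO mouse 1 lay below all control mice and eKO mouse 2 among them. Its log2 fold change was -0.26 (standard error 0.19), or -0.41 without eKO mouse 2.

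The other 5 genes overlapped between control and eKO crypts. *Tst* had 3043, 1851 and 2267 CP20M in control and 3072 and 2500 in eKO crypts, and *Ethe1* had 5341, 3433 and 3942 in control and 5218 and 5074 in eKO crypts. Their log2 fold changes were 0.24 (standard error 0.23) and 0.30 (standard error 0.21), or 0.39 and 0.32 without eKO mouse 2. Control mouse 1 was the highest control for *Tst*, *Ethe1*, *Mpst* and *Suox*, the latter at 678 CP20M against 241 and 306 in control mice 2 and 3, and the lowest for *Slc26a2*. *Suox* had 483 and 493 CP20M in eKO crypts, a log2 fold change of 0.39 (standard error 0.39), or 0.38 without eKO mouse 2. *Papss1* had 2478, 2508 and 2480 CP20M in control and 3000 and 2472 in eKO crypts, at 0.13 (standard error 0.15), or 0.27 without eKO mouse 2. *Slc26a2* had 19084, 28664 and 32208 CP20M in control and 20011 and 33417 in eKO crypts, at -0.01 (standard error 0.32), or -0.38 without eKO mouse 2.

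None of the 7 was called in the Vil1-Cre-Olfr78fx line, as was none of the 15401 genes tested with limma (0%), of which 127 had an unadjusted p under 0.05, and edgeR called 0 and DESeq2 6. *Papss2* was the 1 gene of 7 whose eKO crypts all lay below the control crypts, beside 2.79% of all genes. Colonocyte markers summed to 145811 to 222718 CP20M in control and 173762 to 183221 in eKO crypts, a ratio of means of 0.973. Cell stress genes summed to 7684 to 9734 CP20M in control and 8075 to 9242 in eKO crypts. Leukocyte markers summed to 488 to 1510 CP20M in control and 661 to 693 in eKO crypts. Goblet cell markers summed to 419970 to 659794 CP20M in control and 399406 to 567042 in eKO crypts, a ratio of means of 0.9. Tuft cell markers summed to 1471 to 1873 CP20M in control and 1039 to 1181 in eKO crypts, and general epithelial genes to 106324 to 119262 in control and 119915 to 125524 in eKO crypts. The latter pair of sums did not overlap between the groups, and the part of any of these sums in the values of *Papss2* was not tested.

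Over both lines, with the line as a covariate, *Papss2* had a log2 fold change of -0.73 (standard error 0.13), or -0.82 without eKO mouse 2. It was the 1 gene of the 7 called lower, beside 0.0182% of 16447 genes, and none was called higher, beside 0.00608%. The call was lost in 7 of 12 fits that left out 1 library, namely each WT mouse, KO mice 1 to 4 and control mouse 2, and in the fit without a trend of the spread. Non-overlap within each line, with the KO or eKO mice below, held for *Papss2* alone among the 7, beside 0.395% of all genes. *Mpst* stood at -0.66 (standard error 0.15) and was not called, whereas it was called without eKO mouse 1, at -0.69, and without eKO mouse 2, at -0.80. The values over both lines were 0.00 for *Papss1* (standard error 0.08), -0.15 for *Tst* (0.15), -0.04 for *Ethe1* (0.14), 0.05 for *Suox* (0.22) and -0.07 for *Slc26a2* (0.17). Without eKO mouse 2 they were 0.02, -0.19, -0.11, -0.02 and -0.21 in the same order, and none of these 5 was called.

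The genotype difference in the Olfr78-GFP line minus that in the other line was -0.74 on the log2 scale for *Mpst* (standard error 0.24), -0.73 for *Tst* (0.24), -0.64 for *Ethe1* (0.23), -0.63 for *Suox* (0.41), -0.36 for *Papss2* (0.24), -0.24 for *Papss1* (0.16) and -0.12 for *Slc26a2* (0.34). None of the 7 was called at an adjusted p under 0.05 in limma, beside 0.0122% of all genes, with 1442 genes at an unadjusted p under 0.05 and 5 called by edgeR. Without eKO mouse 2 the differences were -0.59 for *Mpst*, -0.88 for *Tst*, -0.66 for *Ethe1*, -0.61 for *Suox*, -0.22 for *Papss2*, -0.37 for *Papss1* and 0.25 for *Slc26a2*, and again none of the 7 was called.

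Ratios within a library compare related genes without the scaling of the library, and were chosen after the values had been seen. The ratio of *Papss2* to *Papss1* was 7.23 and 10.2 in WT crypts and 4.46 to 5.37 in KO crypts. It was 6.56 to 7.54 in control crypts, 3.65 in eKO mouse 1 and 5.36 in eKO mouse 2. The ratio of *Mpst* to *Tst* was 1.68 and 2.11 in WT crypts and 1.18 to 1.56 in KO crypts, and 1.78 to 2.1 in control crypts, 1.1 in eKO mouse 1 and 1.67 in eKO mouse 2. Neither ratio overlapped between KO and WT crypts or between eKO and control crypts. The share of other gene pairs that separate in this way was not computed, so this non-overlap is a description only. In sorted cells the ratio of *Papss2* to *Papss1* was 8.29 and 8.2 in the Epcam+ve libraries, 2.35 and 0.771 in HE pools, and 0.883 and 2.89 in KO pools. That of *Mpst* to *Tst* overlapped across the sorted groups, from 0.754 in KO pool 2 to 2.57 in HE pool 2.

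**Figure D4:**
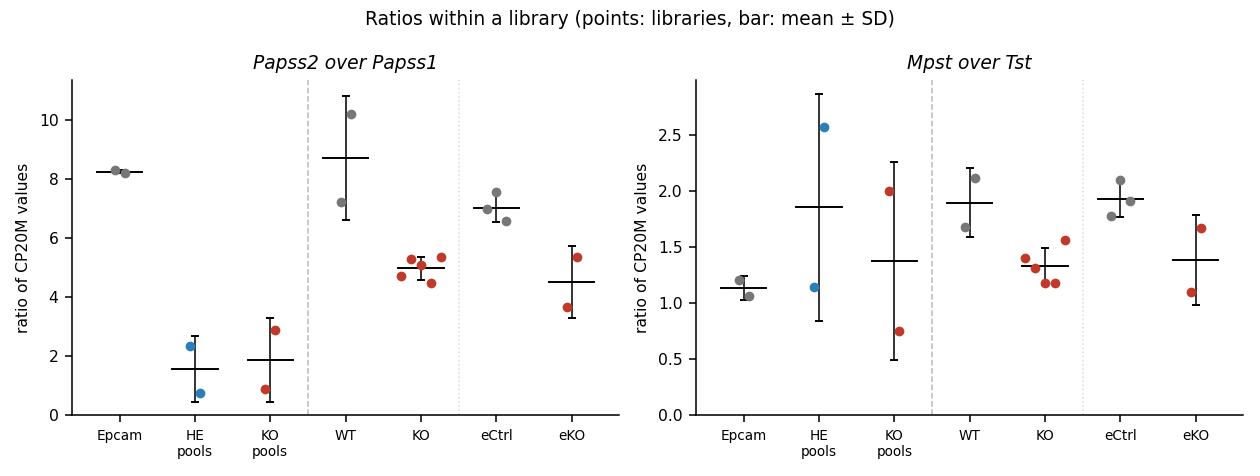
Ratio of CP20M values within each library (points, mean and SD per group, vertical axes from 0) for *Papss2* over *Papss1* on the left and *Mpst* over *Tst* on the right. In crypts both ratios lie lower in every KO and eKO library than in every WT or control library of the same line, for example 4.46 to 5.37 against 7.23 and 10.2 for the synthases.

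The enzymes that use PAPS were tested as lists of other genes, also drawn up with earlier results of these libraries known. Of 12 cytosolic sulfotransferases, which sulfate hormones, phenols and xenobiotics, 5 passed the filter on low values in KO against WT crypts, and 2 were called lower and none higher, beside 1.53% and 7.95% of all genes. *Sult1d1*, the most abundant of the list, had 10362 and 13327 CP20M in WT crypts and 6731 to 8198 in KO crypts (limma log2 fold change -0.66 with standard error 0.12, adjusted p = 0.0105), a call lost without WT mouse 2. *Sult1c2* had 1265 and 1449 CP20M in WT crypts and 697 to 962 in KO crypts (limma log2 fold change -0.72 with standard error 0.12, adjusted p = 0.00929). Both lay without overlap between the groups. In the Vil1-Cre-Olfr78fx line *Sult1d1* had 8650 to 10898 CP20M in control and 7568 and 8199 in eKO crypts, and *Sult1c2* had 675 to 1566 in control and 1454 and 608 in eKO crypts (log2 fold changes -0.25 and -0.01, adjusted p = 1 for each from limma). Without eKO mouse 2 these were -0.30 and 0.61 (adjusted p = 0.691 and 0.689 from limma). In GFP+ve cells of HE mice, 4 of 6 tested sulfotransferases of the list fell and 1 rose at an adjusted p under 0.05, beside 11.3% and 12.5% of all genes. *Sult1c2* fell from 1288 and 1644 to 173 and 94 CP20M (limma log2 fold change -3.41 with standard error 0.36, adjusted p = 0.000658), and *Sult1d1* fell from 5265 and 5918 to 2820 and 1161 CP20M (log2 fold change -1.62, adjusted p = 0.0138 from limma).

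Of 37 Golgi sulfotransferases, which sulfate mucins, proteoglycans, glycolipids and tyrosines, 16 passed the filter in KO against WT crypts, and *Gal3st2c*, a galactose 3-O-sulfotransferase, was the 1 called, beside 1.53% of all genes lower and 7.95% higher. It had 4096 and 7695 CP20M in WT crypts and 1403, 2381, 1984, 429 and 3072 in KO crypts (limma log2 fold change -1.85 with standard error 0.55, adjusted p = 0.0601), a call lost without WT mouse 2. In the other line it had 3455, 4560 and 3398 CP20M in control and 759 and 2267 in eKO crypts (log2 fold change -1.51, adjusted p = 1 from limma), whereas without eKO mouse 2 it was called lower (log2 fold change -2.30, adjusted p = 0.0726 from limma). The groups did not overlap in either line, and reads shared with its close copy *Gal3st2* could have been split by the counting. In HE pools against Epcam+ve libraries 3 of 18 tested members rose and 3 fell at an adjusted p under 0.05, shares near the 12.5% and 11.3% of all genes. The tyrosine sulfotransferase *Tpst1* rose from 9 and 42 to 415 and 534 CP20M and *Tpst2* from 152 and 165 to 645 and 574 CP20M (log2 fold changes 3.94 and 1.88, adjusted p = 0.00374 and 0.00672 from limma). In the Epcam+ve libraries 1 read was worth 8.94 and 10.3 CP20M, so the fold change of *Tpst1* rests on few reads there. KO pools 1 and 2 held 301 and 186 CP20M of *Tpst1* and 226 and 210 of *Tpst2*. *Chst4*, a GlcNAc 6-O-sulfotransferase, fell from 930 and 1100 to 150 and 94 CP20M (log2 fold change -2.99, adjusted p = 0.00119 from limma).

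**Figure D5:**
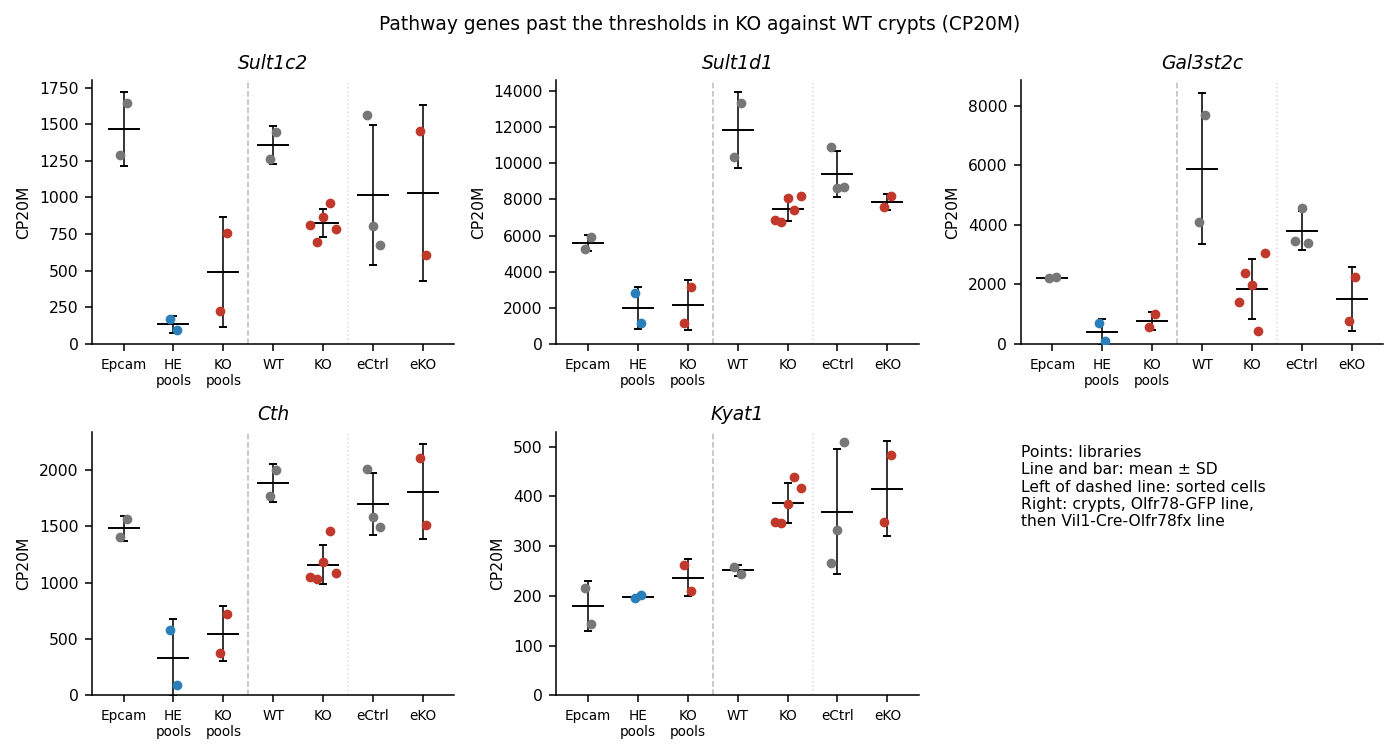
CP20M value (vertical axis, from 0) in each library, with mean and SD per group, of the 5 other pathway genes called in KO against WT crypts. *Gal3st2c* reads 429 to 3072 in KO against 4096 and 7695 in WT crypts, and *Kyat1*, the 1 gene higher in KO crypts, 347 to 438 against 259 and 243.

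Sulfate and PAPS transporters were called nowhere in the crypts, where 1.53% of all genes were called lower and 7.95% higher in KO mice and 0% in eKO mice. *Slc26a3*, the chloride and bicarbonate exchanger of the colonocyte surface and the most abundant of that list, had 9534 and 11750 CP20M in WT crypts and 9116 to 16274 in KO crypts (log2 fold change 0.23, adjusted p = 0.518 from limma). In the HE pools it fell from 5775 and 3904 to 2233 and 574 CP20M, while the sodium-sulfate cotransporter *Slc13a1* rose from 626 and 555 to 1404 and 1801 CP20M (adjusted p = 0.0244 and 0.00476 from limma). KO pool 1 held 2253 and KO pool 2 held 535 CP20M of *Slc13a1*, so these pools stood on either side of the range of the HE pools.

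Of 8 other sulfide oxidation genes tested in the crypts, none was called in either line. Of all genes, 1.53% were called lower and 7.95% higher in KO crypts, and 0% in eKO crypts. *Sqor*, which carries out the first oxidation step, had 6581 and 7161 CP20M in WT, 5221 to 7142 in KO, 7754 to 8572 in control and 8861 and 8331 in eKO crypts (log2 fold changes -0.20 and 0.08, adjusted p = 0.277 and 1 from limma, the latter 0.13 and 0.824 without eKO mouse 2). In the HE pools 4 of the 8 fell and none rose, beside 11.3% and 12.5% of all genes, *Sqor* from 5659 and 4983 to 3314 and 1934 CP20M (log2 fold change -1.07, adjusted p = 0.0193 from limma). Among 9 tested genes of sulfide and persulfide production, *Cth*, which makes cysteine and releases sulfide, fell in KO crypts from 1766 and 2003 to 1030 to 1455 CP20M (limma log2 fold change -0.70 with standard error 0.13, adjusted p = 0.0114). It had 1491 to 2009 CP20M in control and 2106 and 1510 in eKO crypts (log2 fold change 0.08, adjusted p = 1 from limma, or 0.32 and 0.682 without eKO mouse 2). *Kyat1*, a cysteine conjugate lyase, rose from 259 and 243 to 347 to 438 CP20M in KO crypts (limma log2 fold change 0.60 with standard error 0.14, adjusted p = 0.0223), close to 1.5-fold, and its call was lost without any of WT mouse 2 and KO mice 4 and 5. In the other line *Kyat1* had 266 to 509 CP20M in control and 348 and 483 in eKO crypts (log2 fold change 0.20, or -0.03 without eKO mouse 2), so these groups overlapped.

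In the HE pools 4 of the 9 production genes fell and none rose, again beside 11.3% and 12.5% of all genes. *Cbs* fell from 1368 and 1346 to 357 and 81 CP20M, and *Selenbp1*, a methanethiol oxidase and the most abundant of the list, from 5677 and 5270 to 1968 and 467 CP20M (log2 fold changes -2.90 and -2.50, adjusted p = 0.00862 and 0.0124 from limma). Of 4 genes of cysteine oxidation and taurine synthesis 2 fell in the HE pools, beside 11.3% of all genes, namely *Cdo1* and *Gadl1* (log2 fold changes -1.70 and -2.21, adjusted p = 0.0393 and 0.00391 from limma). The 5 genes of molybdenum cofactor synthesis, on which Suox depends, were called in no comparison. The shares of all genes were 11.3% lower and 12.5% higher in the HE pools, and 1.53% and 7.95% in KO crypts. *Mocs2*, the most abundant of the 5, had 545 to 716 CP20M in the Epcam+ve libraries and 334 to 481 in the HE pools. Of 12 tested sulfatases and their activators, which remove sulfate in lysosomes and at the cell surface, 3 rose in the HE pools and none fell, beside 12.5% and 11.3% of all genes. *Ids* rose from 1100 and 627 to 4189 and 4001 CP20M (limma log2 fold change 2.29 with standard error 0.27, adjusted p = 0.00107). Of the 26 pathway genes called in HE pools against Epcam+ve libraries, 11 stayed called without a trend of the spread and 10 with all 6 sorted libraries in 1 fit. Outside the comparison of HE pools with Epcam+ve libraries and that of KO with WT crypts, none of these pathway genes was called with all libraries, and without eKO mouse 2 *Gal3st2c* was also called lower over both lines.

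Over the 12 crypt libraries, after the mean of each line was subtracted, the genes most like *Papss2* by Pearson's r on the log2 scale were *9130204K15Rik* (0.948), *Stard5* (0.948) and *Mpp6* (0.946) among 16447 genes. *Mpst* ranked 12 in likeness to *Papss2* (0.889). The genes most like *Mpst* were *Nudt4* (0.961), *Sult1d1* (0.955) and *Cyp2d26* (0.939). *Tst* and *Ethe1* followed *Mpst* less closely (0.669 and 0.604), and *Slc26a2* had 0.322 with *Papss2* and 0.183 with *Mpst*. These points share libraries and depth, and the genotypes of 2 lines stand within them.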

How the data were processed

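RNA was sequenced from 6 sorted and 12 crypt libraries of mouse colon. The authors made the libraries with the Ovation Solo kit, aligned reads with STAR to GRCm38 and counted them with HTSeq on Ensembl genes (tool versions and strand setting not given in the sources used here). The deposited values are the same measure in every column, rounded-up reads per 20000000 in a library, recorded here as a signal for the sorted and a score for the crypt columns, and raw counts were not used here. The sorted cells and Olfr78-GFP crypts share a table, and the other line has its own, so levels set across tables were scaled separately. The design allowed for counts, and the units needed limma instead. Whole reads were recovered for 99.84 to 99.99% of values and entered count tests as alternatives. The precision of low values is set by what 1 read is worth, which covers counting error only.

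limma 3.58.1 (R 4.3.3, trend of the spread) was fitted to log2(CP20M + 10) over all genes at 40 CP20M (2 CPM) or more in at least 2 libraries compared, or above 40 in all 4 pools for KO against HE, with Benjamini-Hochberg adjustment. Calls needed an adjusted p under 0.001 beyond 4-fold, and separately one under 0.05, for pools against Epcam+ve libraries, one under 0.05 for KO against HE pools and for the difference between lines, and at most 0.2 beyond 1.5-fold for crypts. The fits were tested on simulated data. edgeR 4.0.16 and DESeq2 1.42.0 were alternatives, beside other pseudocounts, filters, scaling, left-out libraries and replicate blocks.

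The 7 genes, the lists and the tests were chosen with earlier results of these data known. Named genes were the 7, in each pathway list up to 5 called genes per direction with the smallest p and the most abundant gene, and the 3 genes most like *Papss2* and *Mpst*. Libraries of a group came from separate mice or pools, except the Epcam+ve libraries of 1 mouse. In comparisons with those libraries, the p-values leave out the spread between WT mice. The sample titles name no pairing of samples with the same number, and whether such samples share a batch is not known. Every column was matched to a sample. The values of 1 gene of the sulfatase list are not reported here.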

Additional observations from a re-analysis of the deposited data

How the results depend on the processing

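No direction of any fitted value that had been called was reversed. Of 1051 alternative values of single genes, 966 kept the call or, for the 7 genes, moved by less than the residual SD, 10 moved by more, and 75 of pathway genes lost the call. In fits of 2 against 2 sorted libraries, leaving 1 out cannot move a value by more than the residual SD. *Tst* in KO against HE pools, for example, ranged from -1.33 to 1.3 at a residual SD of 1.57. The count therefore cannot show that such values are stable, and for the 7 genes it does not follow lost calls. Genes called in HE pools against Epcam+ve libraries (287) numbered 77 and 522 with pseudocounts of 1 and 40, 759 with edgeR, 691 with DESeq2, 0 without a trend (5289 at an unadjusted p under 0.05), 117 with all 6 sorted libraries in 1 fit, and 317 to 1195 with 1 library left out, which also called 0 to 3 of the 7 genes. At 0.05 (3892 genes, 6 of the 7) there were 2019 genes and 0 of the 7 without a trend, 1466 and 0 with all 6 libraries, and 1828 to 4957 and 3 to 6 with 1 left out. In KO pools against Epcam+ve libraries (0 genes) edgeR called 31, DESeq2 238, no filter 15, all 6 libraries 33 and fits with 1 left out 153 to 1753, with 0 to 4 of the 7. At 0.05 (116 genes) there were 0 and 202 with pseudocounts of 1 and 40, 543 with edgeR, 602 with DESeq2 (and 1 of the 7), 288 without a filter, 0 without a trend, 492 with all 6 libraries, and 335 to 6678 with 1 left out, with 1 to 5 of the 7. In KO against HE pools (0 genes) DESeq2 called 8, no filter 2, and fits with 1 left out 0 to 373, with 0 to 1 of the 7. Under rescaling, the genes past the criterion of the methods went from 384 higher and 1188 lower to 687 and 600. In KO against WT crypts (1514 genes) a pseudocount of 40 gave 854 and fits with 1 left out 546 to 1684. In eKO crypts (0 genes) DESeq2 called 6 and fits with 1 left out 1 to 6. Over both lines (4 genes) edgeR called 9, DESeq2 38 (and 2 of the 7), no trend 0 (and 0), and fits with 1 left out 0 to 1134, with 0 to 2 of the 7. For the difference between lines (2 genes) edgeR called 5, and without eKO mouse 2 there were 214. In fits with 1 library left out, the lone library of an arm was assumed to vary like the others. The causes of these changes were not tested.

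With the replicate block, the HE pools against Epcam+ve libraries gave 523 genes and 1 of the 7, the KO pools 194, and 1001 genes and 4 of the 7 at 0.05. KO against HE pools gave 0, and 85 with crossed pairs, an alternative chosen after seeing the data, as were those for the difference between lines. The block gave 1555 genes and 3 of the 7 in KO against WT crypts, the added gene being *Tst*, and 13 genes in eKO crypts. Deviations of same-numbered samples correlated at 0.03, 0.023, -0.244, 0.061 and -0.103, and 0.589 and 0.363 in these comparisons, with at most 2 pairs in each. Over both lines, a block on the number within each line, also chosen after seeing the data, gave 27 genes and 1 of the 7, *Papss2*. Depth limits *Tst* and *Mpst* most, with 3 and 6 reads in KO pool 1.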
